A study of Homo sapiens with 8 samples.

Results

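Noncoding host genes of small nucleolar RNAs (snoRNAs) were followed in the human breast cancer line MDA-MB-231, classed as triple-negative, which grew out of a pleural effusion. The genes were chosen by symbol as the rows named SNHG with a number, together with GAS5, DANCR, ZFAS1 and EPB41L4A-AS1. That gave 32 of the 61228 rows of the count table, and 27 of them were among the 15568 genes that passed the filter on low counts. Messenger RNA was sequenced in 4 groups of 2 libraries. The groups were ETV1, ETV4 and ETV5 knockout cells in collagen I gels, control cells in collagen I gels, knockout cells as monolayers on plastic, and control cells as monolayers on plastic. ETV1, ETV4 and ETV5 are the PEA3 group of ETS transcription factors. Per the labels, all cells were nucleofected. The knockout cells received Cas9 with guides against the 3 genes, and the control gels Cas9 with a control guide, while the labels list only a control guide, and no Cas9, for the control monolayers. An effect of Cas9 therefore cannot be told apart from the knockout effect in monolayers, or from the effect of the gel in control cells, if those cells received none. The difference between the knockout effects in gels and in monolayers uses the same control monolayers and carries the same limit. The labels do not say whether the cells were clones or populations, nor whether libraries of the same group were grown separately, so p-values measure only the spread between these libraries, which may be technical. Gels were digested with collagenase I, pipetted and frozen before lysis and monolayers were lysed directly, so growth in the gel and this handling cannot be told apart.

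In a host gene the snoRNA lies in an intron. Splicing frees the intron, the snoRNA is trimmed out of it and joins a set of proteins, and the spliced exons leave as a transcript of their own. Box C/D snoRNAs guide 2'-O-methylation and H/ACA snoRNAs guide pseudouridylation, mostly of ribosomal RNA, while small Cajal body RNAs (scaRNAs) guide the same changes on spliceosomal RNAs. The spliced transcripts of GAS5, ZFAS1 and several SNHG genes hold short open reading frames, are read by ribosomes and are cleared by nonsense-mediated decay, so their level depends on synthesis and on translation-coupled decay alike. Many hosts also begin with a terminal oligopyrimidine start, a C followed by pyrimidines, as the ribosomal protein genes do. Poly(A) selection favours the host transcripts over the mature snoRNAs, and levels here are counts on the rows of the hosts. In GENCODE v29 the exons of some hosts, taken over all transcripts, cover most of the gene. They cover 3756 of 3927 bases in SNHG1 and 3647 of 3939 bases in SNHG15. Spliced transcripts and RNA that keeps its introns can therefore not be told apart in such rows.

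The small RNAs inside the 32 genes were read from the RefSeq gene table by position. H/ACA snoRNAs alone lay in 11 hosts, box C/D snoRNAs alone in 13 and scaRNAs in 4. SNHG12 and GAS5 held both kinds of snoRNA, GAS5 with 10 box C/D snoRNAs and 1 H/ACA snoRNA. SNHG27 held none, and SNHG28 held an unnamed small RNA gene only. The start sites differed as well. RefSeq promoters (GRCh38.p14) were at hand for 28 of the 32 genes, and 7 of these (25.0%) had an annotated start at a C followed by at least 4 further pyrimidines, against 4.07% of 35116 promoters in the table. The letters TATAA lay 40 to 20 bases before the start in 6 of 28 (21.4%), against 3.77% of all promoters. CCGGAA, the core letters of many ETS sites, was searched on both strands of the 300 bases around the start and lay in 5 of 28 (17.9%), against 17.2% of all promoters. CACGTG, the E-box letters of MYC and its relatives, lay in 2 of 28 (7.14%), against 7.26%. The starts are those of the annotation and were not measured in these cells. The 6 tested hosts with a C and a pyrimidine run are shown first because hosts had that start more often than promoters at large, though most hosts lack it. Each window runs 5' to 3' from 40 bases before the start through the first 20 transcribed bases, and capitals mark TATAA and the pyrimidine run from the first base.
SNHG12 (chr1:28581854-28581913, minus strand): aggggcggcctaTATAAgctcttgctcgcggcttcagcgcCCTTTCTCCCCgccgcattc
SNHG4 (chr5:139274061-139274120, plus strand): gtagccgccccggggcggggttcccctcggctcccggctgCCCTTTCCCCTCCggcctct
SNHG32 (chr6:31834876-31834935, plus strand): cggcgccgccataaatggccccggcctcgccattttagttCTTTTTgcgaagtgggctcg
SNHG5 (chr6:85678714-85678773, minus strand): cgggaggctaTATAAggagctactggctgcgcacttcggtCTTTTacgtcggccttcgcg
SNHG19 (chr16:2155339-2155398, minus strand): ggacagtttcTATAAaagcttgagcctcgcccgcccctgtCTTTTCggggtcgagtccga
ZFAS1 (chr20:49278602-49278661, plus strand): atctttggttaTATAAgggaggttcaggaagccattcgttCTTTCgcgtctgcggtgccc
The next 8 hosts are shown because each passed a test described below without such a start. Capitals mark the first transcribed base, or the pyrimidine run where it begins with one, and TATAA in SNHG7.
DANCR (chr4:52712354-52712413, plus strand): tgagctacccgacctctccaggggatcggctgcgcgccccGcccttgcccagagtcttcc
SNHG28 (chr1:159855018-159855077, minus strand): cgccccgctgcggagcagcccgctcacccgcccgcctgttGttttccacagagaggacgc
SNHG3 (chr1:28505903-28505962, plus strand): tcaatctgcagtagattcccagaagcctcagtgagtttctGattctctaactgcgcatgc
EPB41L4A-AS1 (chr5:112160486-112160545, plus strand): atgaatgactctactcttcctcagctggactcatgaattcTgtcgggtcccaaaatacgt
SNHG17 (chr20:38435309-38435368, minus strand): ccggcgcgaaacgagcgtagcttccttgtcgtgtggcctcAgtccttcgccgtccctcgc
SNHG7 (chr9:136728165-136728224, minus strand): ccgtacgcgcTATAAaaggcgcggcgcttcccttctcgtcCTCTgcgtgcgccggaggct
SNHG16 (chr17:76557724-76557783, plus strand): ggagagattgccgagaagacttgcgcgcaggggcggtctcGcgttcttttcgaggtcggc
SNHG20 (chr17:77088603-77088662, plus strand): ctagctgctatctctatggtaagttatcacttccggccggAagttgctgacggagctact
SNHG7 began with a run too short to count, and DANCR, SNHG3, SNHG28 and SNHG16 began with G. Of the 6 tested hosts with the C and pyrimidine start, SNHG32 and SNHG5 passed a test, both in the comparison of knockout with control gels and in opposite directions.

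The host genes took 0.164 to 0.176% of the counts of a library. Their summed level, in CPM, the count scaled to the size of the library with edgeR's TMM factors, was 1803 and 1708 in knockout gels, 1695 and 1749 in control gels, 1674 and 1626 in knockout monolayers and 1685 and 1614 in control monolayers. Library totals ran from 15824504 to 23896899 counts. SNHG29, the host of SNORD49A, SNORD49B and SNORD65, gave 25.3% of the host counts, SNHG5 12.9% and GAS5 10.8%. Per kilobase of annotated exon the order was SNHG29 at 114 CPM, SNHG5 at 77.9 CPM, GAS5 at 50.2 CPM, SNHG32 at 48.3 CPM, SNHG6 at 45.1 CPM, SNHG8 at 39.9 CPM and SNHG1 at 36.6 CPM, down to SNHG20 at 0.634 CPM, as means of the 8 libraries. From GAS5 to SNHG1 the ranges of neighbours over the libraries overlapped, as with 46.7 to 55.0 CPM per kilobase for GAS5 and 44.1 to 52.1 for SNHG32. SNHG29 stood above these, at 105 to 120 CPM per kilobase. The length used joins the exons of all annotated transcripts of a gene, 29 for GAS5 and 5 for SNHG8. The order therefore depends on the annotation as well. The 5 hosts under the filter were SNHG31 with 2 to 10 counts a library, SNHG22 with 4 counts in all, SNHG14 with 3, SNHG27 with 1, and SNHG18 with 0. A count of 0 allows up to 3 counts in a library, by counting error alone. SNHG14 is the long host of the SNORD115 and SNORD116 clusters in the imprinted Prader-Willi region.

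**Figure D1:**
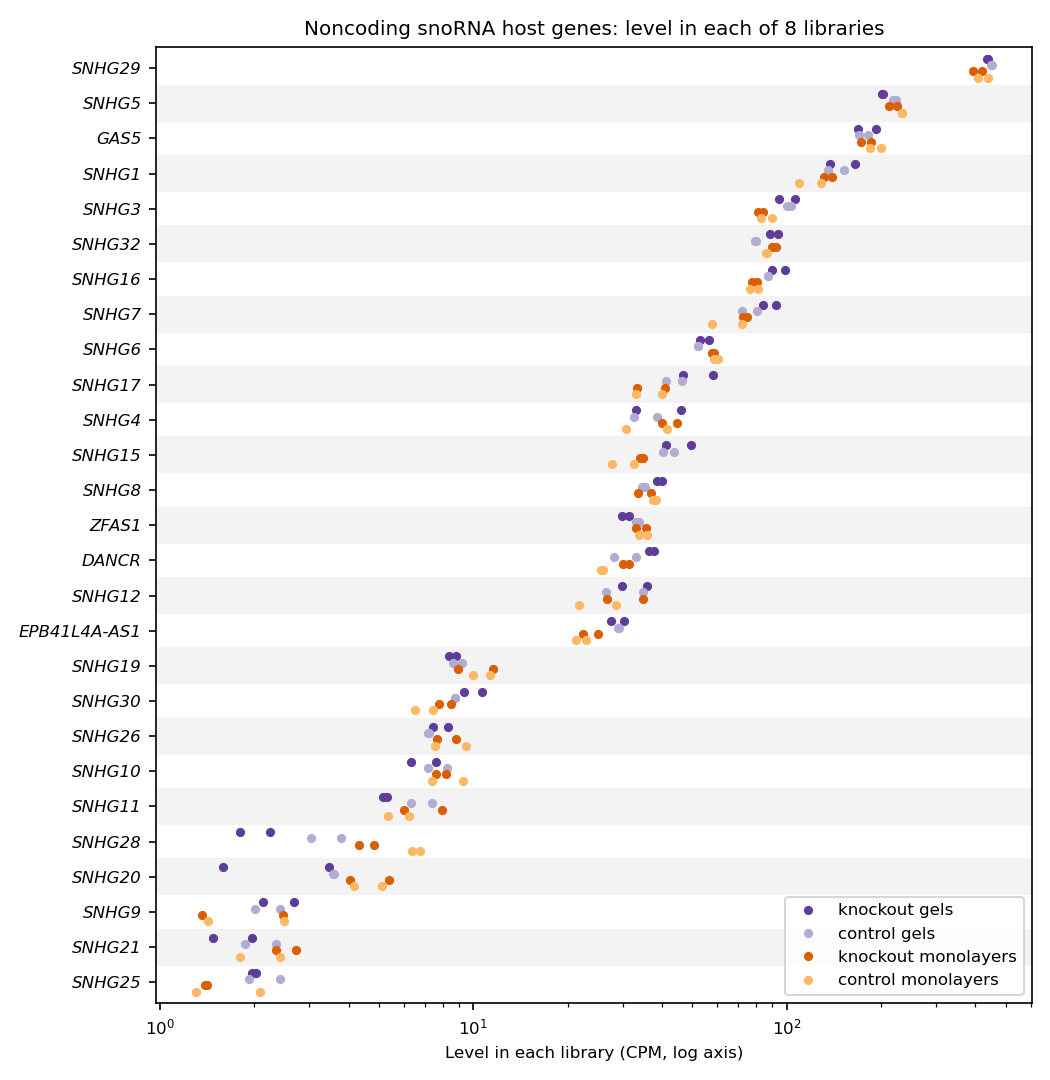
Level of each of the 27 tested host genes in each of the 8 libraries, in CPM on a log axis, with a row per gene and points for knockout gels, control gels, knockout monolayers and control monolayers from top to bottom of a row. SNHG29 lies between 393 and 453 CPM and most genes keep their place across the groups, while SNHG28 spreads between 1.81 and 6.76 CPM.

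As a check of the labels, ETV1 was at 138 and 141 CPM in knockout gels, against 222 and 217 CPM in control gels, and at 136 and 151 CPM in knockout monolayers, against 200.2 and 205 CPM in control monolayers. ETV4 was lower in the same way, at 67.1 and 63.0 CPM in knockout gels, against 96.8 and 96.6 CPM in control gels, and at 63.5 and 61.2 CPM in knockout monolayers, against 81.3 and 89.2 CPM in control monolayers. ETV5 lay between 109.6 and 119 CPM in the 8 libraries, so its transcript level did not mark the knockout. Vimentin (5284 to 7407 CPM) and CD44 (353 to 591 CPM) were high, as known of this mesenchymal line. Of epithelial and luminal genes, KRT8 was at 386 to 554 CPM, KRT18 at 288 to 379 CPM, EPCAM at 12.9 to 23.0 CPM and GATA3 at 7.53 to 12.7 CPM. ERBB2, which encodes HER2, was at 56.4 to 69.4 CPM, so its transcript was present. ESR1, PGR, CD3E, CDH5 and DCN were at or under 0.121 CPM. The summed level of 9 leukocyte, endothelial and fibroblast markers was 14.6 to 15.8 CPM in knockout gels, 17.3 to 18.1 CPM in control gels, 26.4 to 26.6 CPM in knockout monolayers and 22.09 to 22.10 CPM in control monolayers. Of the 9 markers 3 passed the filter, and CD3E, CDH5 and DCN were at 0 in at least 6 of the 8 libraries. Of these COL1A1 fell in the gel in both kinds of cell and PECAM1 fell in knockout cells, while PTPRC did not pass. COL1A1 rose with knockout in monolayers (log2 fold change 0.50, edgeR, adjusted p = 0.00103) and PECAM1 fell with knockout in gels (-0.79, adjusted p = 0.000543). The part of these markers in the host results was not tested. In bulk RNA a smaller share of cells with a transcript and less of it per cell cannot be told apart.

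Knockout changed few host genes. In gels, 2 of 27 rose (DANCR and SNHG32) and 2 fell (SNHG28 and SNHG5), where 11.5% of all tested genes rose, 12.4% fell and 23.9% were called in either direction. In monolayers, 1 rose (DANCR) and 1 fell (SNHG28), where 9.6% of all tested genes rose, 9.6% fell and 19.2% were called in either direction. The median log2 fold change of the host genes was 0.07 in gels and -0.01 in monolayers, beside 0.00 in gels and 0.01 in monolayers for all tested genes. The share of hosts called was 14.8% in gels and 7.41% in monolayers, below the share among all genes in both, which was not tested. A gene was called where edgeR's quasi-likelihood F-test, adjusted over all 15568 genes, gave an adjusted p under 0.05. Without control gel library 2 no host was called for knockout in gels.

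DANCR, the host of SNORA26 and first described as an RNA that holds back differentiation, was at 36.3 and 37.8 CPM in knockout gels, against 33.1 and 28.1 CPM in control gels, and at 30.0 and 31.4 CPM in knockout monolayers, against 26.0 and 25.6 CPM in control monolayers. Both knockout libraries lay above both controls in either culture. The same held for 9 of 27 hosts in gels and 6 in monolayers, and for 31.0% and 30.2% of all tested genes. Both knockout libraries lay below both controls for 6 hosts in gels and 4 in monolayers, and for 30.7% and 26.7% of all tested genes. The log2 fold change was 0.27 ± 0.08 in gels (SE, 1.21-fold, adjusted p = 0.0118) and 0.25 ± 0.08 in monolayers (1.19-fold, adjusted p = 0.0308). Leaving out either control monolayer library or either knockout monolayer library ended the call in monolayers, and leaving out control gel library 2 or knockout gel library 2 ended it in gels. DESeq2 called it in neither. Over the 14 alternatives tried the adjusted p ran from 0.00560 to 0.296 in gels and from 0.0223 to 0.182 in monolayers, and the log2 fold change stayed above 0, at 0.16 or more in gels and 0.17 or more in monolayers.

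SNHG28 moved in the opposite direction and by more. It was at 2.25 and 1.81 CPM in knockout gels, against 3.03 and 3.79 CPM in control gels, and at 4.83 and 4.31 CPM in knockout monolayers, against 6.36 and 6.76 CPM in control monolayers. The groups did not overlap in either culture. The log2 fold change was -0.74 ± 0.23 in gels (SE, 0.598-fold, adjusted p = 0.0149) and -0.52 ± 0.17 in monolayers (0.698-fold, adjusted p = 0.0320). These values rest on 34 to 158 counts a library. The call in gels ended without control gel library 2 or knockout gel library 2, and the call in monolayers without any 1 of the 4 monolayer libraries, and DESeq2 made neither call. Over the alternatives the log2 fold change stayed between -0.90 and -0.58 in gels and between -0.61 and -0.43 in monolayers. The exons of SNHG28 overlap those of VSIG8 on the same strand and of SLAMF8 on the other in GENCODE v29. VSIG8 had 16 counts and SLAMF8 had 2 over the 8 libraries.

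SNHG32, also known as C6orf48, carries SNORD48 and SNORD52 in the class III region of the major histocompatibility complex. It was at 88.6 and 93.8 CPM in knockout gels, against 79.9 and 79.4 CPM in control gels, a log2 fold change of 0.20 ± 0.06 (SE, adjusted p = 0.00948) that ended without either control gel library or without knockout gel library 2. In monolayers it was at 92.2 and 89.9 CPM in knockout cells, against 86.9 and 85.7 CPM in control cells, a log2 fold change of 0.08 that did not pass. Knockout libraries lay above the controls without overlap in both cultures, beside the shares of all genes given above. SNHG5, the host of SNORD50A and SNORD50B, was at 202 and 202 CPM in knockout gels, against 223 and 218 CPM in control gels, a log2 fold change of -0.13 ± 0.05 with an adjusted p of 0.0491 at the threshold. It was called in 4 of 14 alternatives. In monolayers SNHG5 was at 225 and 213 CPM in knockout cells, against 233 and 234 CPM in control cells, and the log2 fold change of -0.09 did not pass. Here the knockout libraries lay below the controls in both cultures.

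**Figure D2:**
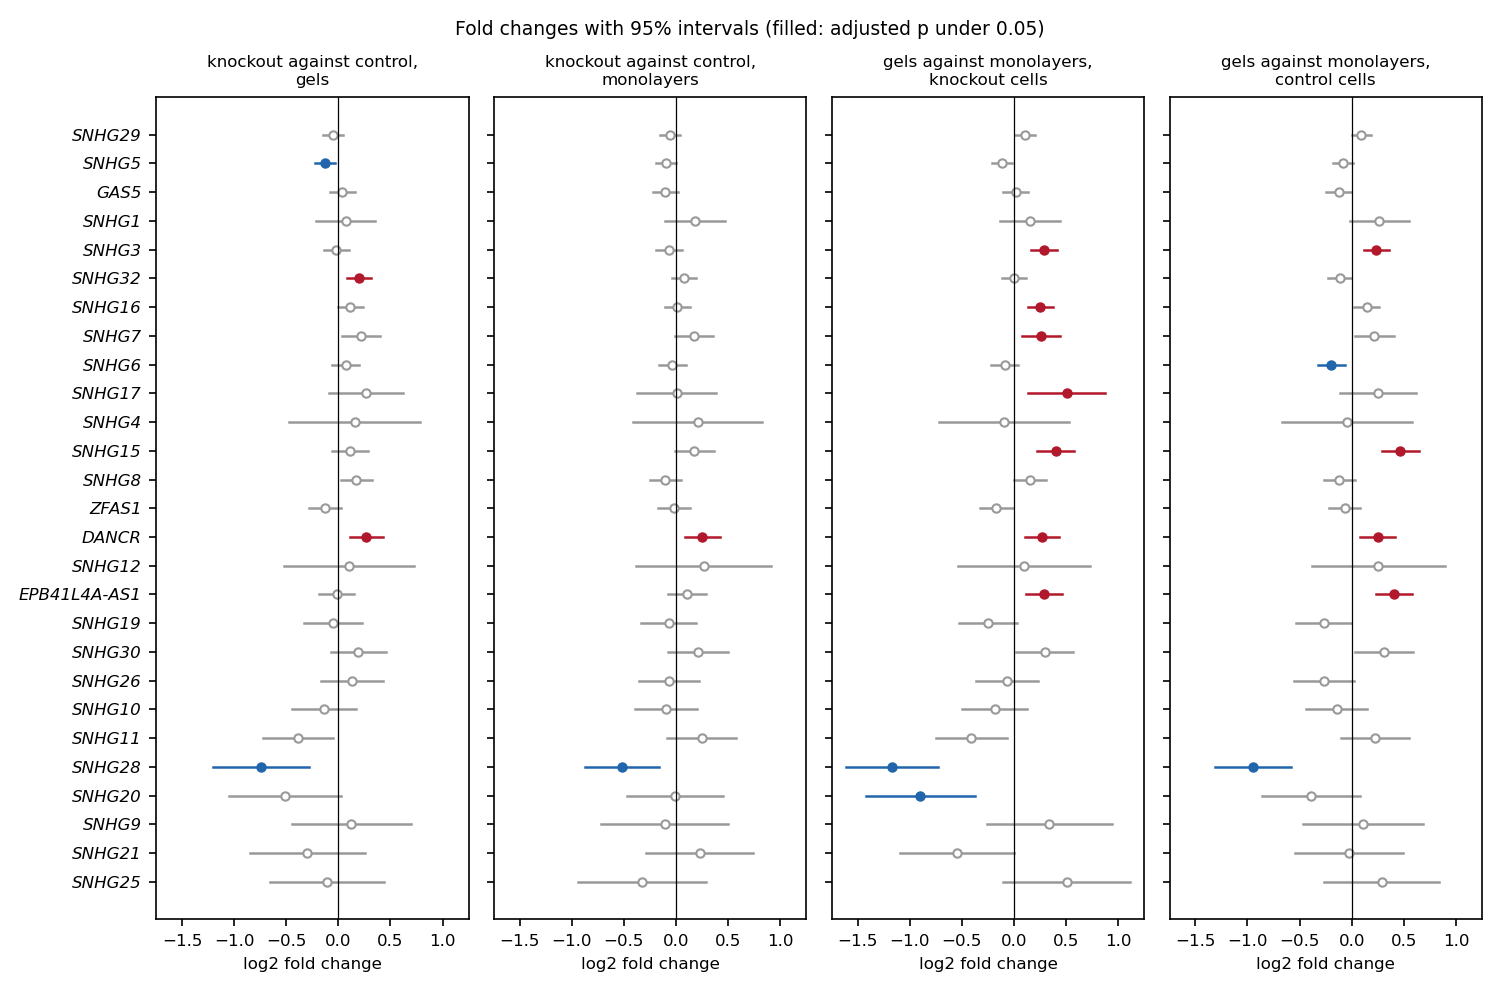
Log2 fold changes of the 27 tested host genes with 95% intervals, for knockout against control in gels and in monolayers and for gels against monolayers in knockout and in control cells, with genes ordered by level and filled points for adjusted p under 0.05. DANCR lies right of 0 and SNHG28 left of 0 with filled points in all 4 panels, and the best expressed host, SNHG29, lies within 0.11 of 0 in each.

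GAS5 and ZFAS1, named above for their clearance by nonsense-mediated decay, did not pass in any comparison, and neither did SNHG29. DANCR and EPB41L4A-AS1, chosen by name with them, did pass, as given above and below. GAS5, named for its accumulation in growth-arrested cells, was at 193 and 169.5 CPM in knockout gels, 171 and 182 CPM in control gels, 185 and 173 CPM in knockout monolayers and 199.6 and 185 CPM in control monolayers. Its log2 fold changes for knockout were 0.04 (95% interval -0.08 to 0.16) in gels and -0.10 (-0.22 to 0.02) in monolayers, and the 2 kinds of cell overlapped in both cultures. ZFAS1, the host of the SNORD12 family, was at 31.5 and 29.8 CPM in knockout gels, 33.0 and 33.8 CPM in control gels, 33.1 and 35.7 CPM in knockout monolayers and 35.9 and 33.8 CPM in control monolayers. The intervals for knockout ran from -0.28 to 0.03 in gels and from -0.18 to 0.13 in monolayers, so a change of ZFAS1 by more than 0.28 on the log2 scale lay outside them. SNHG29 was at 435 and 439 CPM in knockout gels, 453 and 450.3 CPM in control gels, 393 and 419 CPM in knockout monolayers and 408 and 439 CPM in control monolayers, with intervals from -0.14 to 0.05 in gels and from -0.15 to 0.03 in monolayers for knockout. For gels against monolayers the interval of GAS5 was -0.24 to -0.01 in control cells. In knockout cells it was -0.33 to -0.01 for ZFAS1 and 0.01 to 0.20 for SNHG29. In the other kind of cell the interval of each gene included 0.

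Between gels and monolayers the share of hosts called was at or under that of all genes, which was not tested. In knockout cells 7 of 27 rose and 2 fell, where 20.1% of all tested genes rose, 17.9% fell and 38% were called in either direction, against 33.3% of the hosts. In control cells 4 of 27 rose and 2 fell, where 16% of all tested genes rose, 10.7% fell and 26.7% were called in either direction, against 22.2% of the hosts. The medians of the host genes were 0.09 in knockout cells and 0.09 in control cells on the log2 scale, beside -0.01 in knockout cells and 0.01 in control cells for all tested genes. SNHG15, EPB41L4A-AS1, DANCR and SNHG3 rose and SNHG28 fell in both, while SNHG17, SNHG7 and SNHG16 rose and SNHG20 fell in knockout cells, and SNHG6 fell in control cells. Scaling by library size alone gave 5 higher and 5 lower in knockout cells and 2 higher and 7 lower in control cells. It called 36.2% of all genes in knockout cells and 26% in control cells. The excess of called rises over called falls therefore depended on the scaling. That scaling moved the median of all genes to -0.07 in both. It moved the median of the hosts to 0.03 in knockout cells and 0.01 in control cells, still above that of all genes. Other alternatives put the host median below that of all genes. In knockout cells it was -0.03 without knockout monolayer library 2, beside -0.01 for all genes. In control cells it was -0.01 without control monolayer library 2, beside 0.02 for all genes. Without the filter on low counts it was -0.03 in control cells, beside 0 for all genes. Without knockout monolayer library 2 the calls in knockout cells were 4 higher and 5 lower, and without knockout gel library 2 those in control cells were 8 higher and 2 lower.

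SNHG15, the host of SNORA9, rose most among the hosts called in both. It was at 49.6 and 41.1 CPM in knockout gels, 40.2 and 43.8 CPM in control gels, 34.7 and 34.0 CPM in knockout monolayers and 32.5 and 27.8 CPM in control monolayers. All 4 gel libraries lay above all 4 monolayer libraries. In knockout cells both gel libraries lay above both monolayer libraries for 11 of 27 hosts and 34.1% of all tested genes. They lay below for 8 hosts and 33.5% of all tested genes. In control cells they lay above for 11 hosts and 34.9%, and below for 10 hosts and 29.4%. The log2 fold change was 0.40 ± 0.09 in knockout cells (SE, 1.32-fold, adjusted p = 0.000608) and 0.47 ± 0.09 in control cells (1.38-fold, adjusted p = 0.000212), and it passed under all 14 alternatives in both. EPB41L4A-AS1, the host of SNORA13, was at 30.2 and 27.5 CPM in knockout gels, 29.2 and 28.97 CPM in control gels, 24.9 and 22.4 CPM in knockout monolayers and 21.3 and 22.8 CPM in control monolayers. Gels again lay above monolayers without overlap, with log2 fold changes of 0.29 ± 0.09 in knockout cells (1.22-fold, adjusted p = 0.00794) and 0.41 ± 0.08 in control cells (1.32-fold, adjusted p = 0.000457). The call in control cells held under all 14 alternatives. That in knockout cells ended without knockout monolayer library 2, without knockout gel library 1 and under DESeq2. EPB41L4A, which overlaps it on the other strand, was at 5.63 to 8.66 CPM and did not pass in any comparison.

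SNHG3 carries SNORA73A and SNORA73B, which act in the early cleavage of the ribosomal RNA precursor. It was at 106 and 94.5 CPM in knockout gels, 100.02 and 103 CPM in control gels, 83.8 and 80.8 CPM in knockout monolayers and 89.7 and 82.6 CPM in control monolayers. The gels lay above the monolayers in both kinds of cell, with log2 fold changes of 0.29 ± 0.06 in knockout cells (SE, 1.22-fold, adjusted p = 0.000315) and 0.23 ± 0.06 in control cells (1.18-fold, adjusted p = 0.00328). The call in control cells ended under library size alone, without control monolayer library 2 and without control gel library 2, at adjusted p of up to 0.0652. RCC1, whose exons overlap those of SNHG3 on the same strand, had a log2 fold change of 0.20 in knockout cells (adjusted p = 0.00197) and 0.07 in control cells (adjusted p = 0.302), and counts from the shared exons cannot be told apart. DANCR, with the levels given above, was also higher in gels without overlap, by 0.27 ± 0.08 on the log2 scale in knockout cells (adjusted p = 0.00795) and by 0.25 ± 0.08 in control cells (adjusted p = 0.0213). The call in control cells ended in 6 of 14 alternatives, among them those without control gel library 1 and without either control monolayer library. That in knockout cells ended without knockout gel library 2, without knockout monolayer library 1 and under DESeq2.

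The remaining rises were called in knockout cells. SNHG17, which holds 4 H/ACA snoRNAs of the SNORA71 family, was at 58.3 and 46.8 CPM in knockout gels, against 40.8 and 33.3 CPM in knockout monolayers, a log2 fold change of 0.51 ± 0.15 (SE, 1.42-fold, adjusted p = 0.0391). It was at 41.3 and 46.4 CPM in control gels, against 39.97 and 33.0 CPM in control monolayers, with a log2 fold change of 0.25. In both kinds of cell the gels lay above the monolayers, and the spread within groups was wide. SNHG7, the host of SNORA17A and SNORA17B, was at 92.4 and 84.2 CPM in knockout gels, against 74.6 and 72.7 CPM in knockout monolayers (log2 fold change 0.26 ± 0.09, adjusted p = 0.0246), and at 72.1 and 80.2 CPM in control gels, against 71.8 and 57.8 CPM in control monolayers (0.22, adjusted p = 0.0733). SNHG16, the host of SNORD1A, SNORD1B and SNORD1C, was at 90.1 and 98.4 CPM in knockout gels, against 80.7 and 77.8 CPM in knockout monolayers (0.25 ± 0.06, adjusted p = 0.000925), and at 87.1 and 86.9 CPM in control gels, against 80.7 and 76.3 CPM in control monolayers (0.15, adjusted p = 0.0623). For SNHG7 and SNHG16 the gels lay above the monolayers in both kinds of cell, and SNHG16 was the only box C/D host to rise in either. Of these 3, SNHG16 in knockout cells passed under all 14 alternatives, SNHG17 was lost under library size alone and without knockout monolayer library 2, and SNHG7 was lost under library size alone, without either knockout monolayer library and without knockout gel library 1.

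SNHG28 fell most in the gel. With the levels given above, the log2 fold change was -1.17 ± 0.22 in knockout cells (SE, 0.445-fold, adjusted p = 6.0e-05) and -0.95 ± 0.18 in control cells (0.519-fold, adjusted p = 0.000139), and both calls held under all 14 alternatives. Its order across the groups was knockout gels, control gels, knockout monolayers and control monolayers from low to high, with no overlap between neighbours. SNHG20, the host of SCARNA16, was at 3.45 and 1.59 CPM in knockout gels, against 5.38 and 4.04 CPM in knockout monolayers, and at 3.60 and 3.57 CPM in control gels, against 5.11 and 4.16 CPM in control monolayers. Knockout gel library 2 was the low one, and without it the call in knockout cells (log2 fold change -0.90 ± 0.25, adjusted p = 0.00720) was lost at a log2 fold change of -0.44. It was also lost without knockout monolayer library 1. SEC14L1, whose exons overlap those of SNHG20 on the same strand, was at 134 and 123 CPM in knockout gels, against 168 and 134 CPM in knockout monolayers, and at 175 and 169.8 CPM in control gels, against 237 and 231.5 CPM in control monolayers. SNHG6, the host of SNORD87, was at 52.2 and 52.2 CPM in control gels, against 60.6 and 58.8 CPM in control monolayers (log2 fold change -0.19 ± 0.06, adjusted p = 0.0204), and at 53.0 and 56.6 CPM in knockout gels, against 58.7 and 58.0 CPM in knockout monolayers (-0.09, adjusted p = 0.285). The call in control cells ended without either control gel library, without control monolayer library 1 and under DESeq2.

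Most of the hosts that rose in the gel carry H/ACA snoRNAs. Of the 10 tested hosts with H/ACA snoRNAs alone, 6 rose in the gel in knockout cells and 4 in control cells, and none fell. Among all tested genes 20.1% rose and 17.9% fell in knockout cells, and 16% rose and 10.7% fell in control cells. Of the 11 tested hosts with box C/D snoRNAs alone, 1 rose and none fell in knockout cells, and none rose and 1 fell in control cells. The median log2 fold change was 0.28 in knockout cells and 0.23 in control cells for the H/ACA hosts, and 0.00 in knockout cells and -0.07 in control cells for the box C/D hosts. Over the 14 alternatives the median of the H/ACA hosts ran from 0.21 to 0.34 in knockout cells and from 0.14 to 0.34 in control cells. That of the box C/D hosts ran from -0.06 to 0.04 in knockout cells and from -0.15 to -0.04 in control cells. With library size alone 4 H/ACA hosts rose and 1 fell in knockout cells and 2 rose and 1 fell in control cells, while 1 box C/D host rose and 2 fell in knockout cells and none rose and 4 fell in control cells. The split was made after the values had been seen, and the difference between the kinds was not tested. The 2 H/ACA hosts that lay below 0 in the gel in knockout cells were SNHG4 and SNHG11. In control cells SNHG8 (-0.12) and SNHG4 (-0.05) lay below 0. With the replicate number as a block, 6 H/ACA hosts rose and 1 fell in knockout cells, and 6 rose and 0 fell in control cells.

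**Figure D3:**
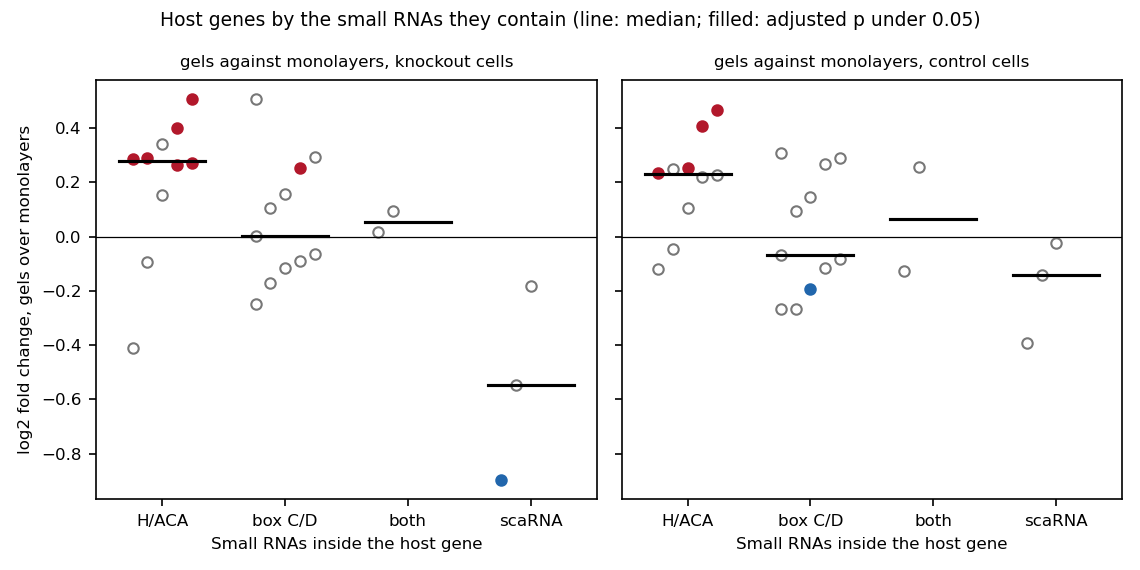
Log2 fold change of each tested host gene except SNHG28 for gels against monolayers, in knockout cells (left) and control cells (right). Genes are grouped by the small RNAs they contain, with a line at the median and filled points for adjusted p under 0.05. SNHG28 held an unnamed small RNA gene only and is not drawn. It was at -1.17 in knockout cells and -0.95 in control cells. The H/ACA hosts centre on 0.28 in knockout cells and 0.23 in control cells, and the box C/D hosts near 0.

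Hosts of many box C/D snoRNAs did not pass. SNHG1, which carries 8 named box C/D snoRNAs, was at 165 and 137 CPM in knockout gels, 135 and 153 CPM in control gels, 139.5 and 132 CPM in knockout monolayers and 129 and 109 CPM in control monolayers. Its log2 fold changes for the gel were 0.16 (95% interval -0.13 to 0.44) in knockout cells and 0.27 (-0.02 to 0.55) in control cells. SNHG4, SNHG12 and SNHG8 did not pass in any comparison either. SNHG4, which holds SNORA74A and SNORA74D, was at 46.0 and 33.2 CPM in knockout gels, 32.6 and 38.6 CPM in control gels, 44.6 and 40.03 CPM in knockout monolayers and 41.5 and 30.8 CPM in control monolayers. SNHG12 was at 35.7 and 29.8 CPM in knockout gels, 26.5 and 34.8 CPM in control gels, 34.9 and 26.7 CPM in knockout monolayers and 28.6 and 21.7 CPM in control monolayers. In both genes the groups overlapped, since the libraries of a group lay far apart, and the 95% intervals of the 4 fold changes spanned at least -0.38 to 0.53 on the log2 scale. SNHG8, the host of SNORA24, was at 38.5 and 40.02 CPM in knockout gels, 35.2 and 34.5 CPM in control gels, 37.0 and 33.6 CPM in knockout monolayers and 37.5 and 38.4 CPM in control monolayers. The hosts under 20 CPM that did not pass, SNHG19, SNHG30, SNHG26, SNHG10, SNHG11, SNHG9, SNHG21 and SNHG25, lay between 1.30 and 11.6 CPM.

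The knockout effect in gels did not differ detectably from that in monolayers for any host gene. The interaction, the first minus the second on the log2 scale, was called by edgeR for 0 of 27, where 2.67% of all tested genes were above 0 and called, 3.94% below 0 and called, and 6.6% called in either direction. Without adjustment 2 hosts had p under 0.05 (SNHG8 and SNHG11), and DESeq2 also called 0. Among all tested genes the unadjusted count was 3025. The smallest adjusted p among the hosts came with interactions of -0.64 ± 0.23 for SNHG11 (SE, adjusted p = 0.102) and 0.27 ± 0.10 for SNHG8 (adjusted p = 0.117).

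The gene lists beside the hosts were chosen with earlier results of these data known, and comparisons that share samples are given side by side. Of 20 proteins of snoRNA particles, 15 were higher in gels than monolayers in knockout cells and 7 in control cells (75% and 35%, beside 20.1% and 16% of all genes in knockout and control cells), and none was lower, with medians of 0.26 in knockout cells and 0.11 in control cells on the log2 scale. In knockout against control, 8 of 20 were higher in gels (40%, beside 11.5% of all genes) and edgeR called 0 in monolayers (beside 9.6% higher among all genes), none was lower, and 3 had an unadjusted p under 0.05 in monolayers. DKC1, the pseudouridine synthase of H/ACA particles and itself a host gene, averaged 289.7 ± 0.51 CPM in knockout gels, 231.5 ± 1.33 CPM in control gels, 209 ± 0.35 CPM in knockout monolayers and 199.99 ± 9.06 CPM in control monolayers (SD, n = 2 each). Its interaction was 0.26 ± 0.07 (edgeR, adjusted p = 0.0102). NOP58, a core protein of box C/D particles, rose by 0.45 in the gel in knockout cells and by 0.35 in control cells on the log2 scale, and NOLC1, which binds both kinds of particle, rose by 0.41 in knockout cells and by 0.20 in control cells.

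Of 42 tested coding genes that carry snoRNAs in their introns, 21 were higher and 1 lower in gels than monolayers in knockout cells (52.4% called, beside 38% of all genes), and 10 were higher and 1 lower in control cells (26.2%, beside 26.7%). In knockout against control 15 were higher and 2 lower in gels (40.5%, beside 23.9%), and 1 was higher and 5 lower in monolayers (14.3%, beside 19.2%). WDR43 showed the smallest adjusted p of that list in knockout cells in the gel, with a log2 fold change of 0.71. Of 58 cytoplasmic ribosomal protein genes, most of which have a terminal oligopyrimidine start, 20 were higher in knockout than control gels and none was lower (34.5% called, beside 23.9% of all genes), with a median log2 fold change of 0.09. In monolayers 1 was higher and 1 lower (3.45%, beside 19.2%). In the gel against the monolayer 17 were higher and 1 lower in knockout cells (31.0%, beside 38%), and 1 was higher and 2 lower in control cells (5.17%, beside 26.7%). Of 19 tested terminal oligopyrimidine genes outside the ribosomal proteins, 2 were higher and 2 lower in knockout than control gels (21.1% called, beside 23.9% of all genes), and edgeR called 0 in monolayers, where 2 had an unadjusted p under 0.05. The coding hosts and the ribosomal protein genes share members, so their shares are not separate results. No list was tested against other genes.

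**Figure D4:**
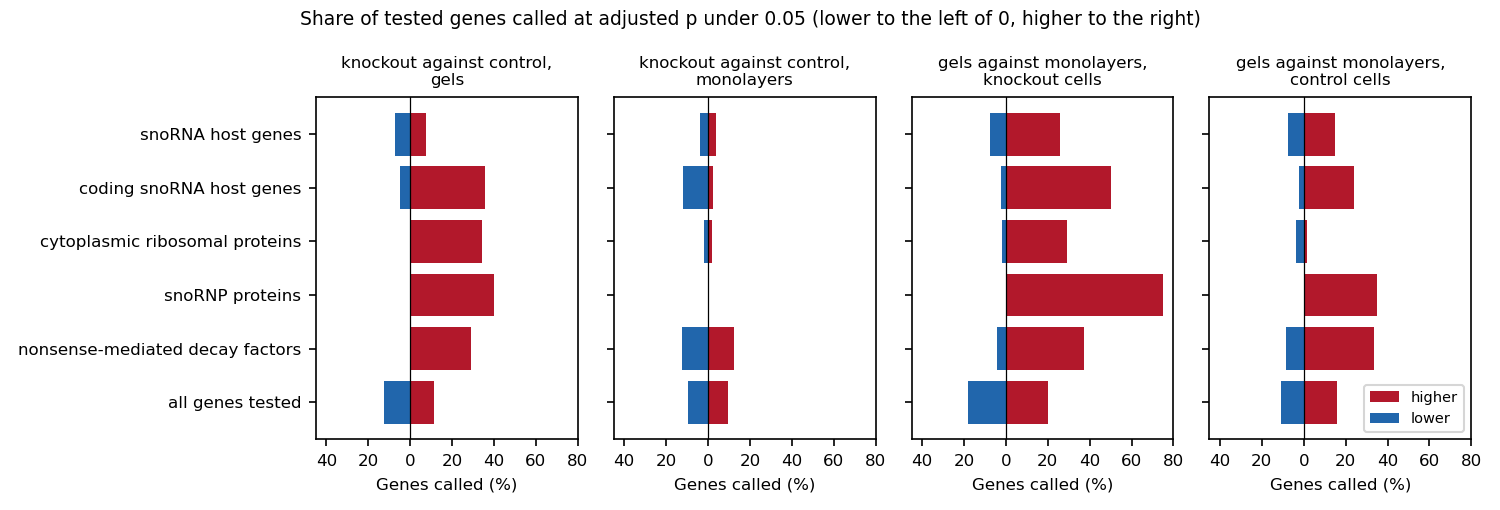
Share of tested genes called at adjusted p under 0.05, with genes that were lower left of 0 and genes that were higher right of 0, for the noncoding host genes, 4 other lists and all tested genes in 4 comparisons. In knockout cells in the gel 25.9% of the noncoding hosts were higher, beside 50% of coding hosts, 75% of snoRNA particle proteins and 20.1% of all tested genes.

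Of 24 nonsense-mediated decay factors, 7 were higher and none lower in knockout than control gels (29.2% called, beside 23.9% of all genes), and 3 were higher and 3 lower in monolayers (25.0%, beside 19.2%). In gels against monolayers 9 were higher and 1 lower in knockout cells (41.7%, beside 38%), and 8 were higher and 2 lower in control cells (41.7%, beside 26.7%). MAGOH, a protein of the exon junction complex that marks transcripts for decay, had a log2 fold change for knockout of 0.35 in gels (edgeR, adjusted p = 2.66e-05) and 0.01 in monolayers, with an interaction of 0.35 (adjusted p = 0.00872). ETF1, the release factor that ends translation, rose by 0.26 on the log2 scale in knockout against control gels, and XRN1, the nuclease that degrades decay products from the 5' end, fell by 0.41 in knockout against control monolayers. Of 16 other transcripts reported as targets of this decay, 9 were higher and 1 lower in the gel in knockout cells (62.5% called, beside 38% of all genes), and 9 were higher and 1 lower in control cells (62.5%, beside 26.7%). Of the higher ones 8 were the same genes, and the lower one differed. ATF3, a stress-induced transcription factor, changed most among them, at 168 and 140.4 CPM in knockout gels, 119 and 131 CPM in control gels, 5.98 and 7.09 CPM in knockout monolayers and 9.30 and 8.93 CPM in control monolayers.

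Many hosts shared the direction of the difference between the 2 libraries of a group. In knockout gels, knockout monolayers and control monolayers library 1 was above library 2, and in control gels library 1 was below library 2, for 9 of the 27 tested hosts (33.3%) and for 9.47% of all tested genes. Among the 17 hosts at 20 CPM or more it was 8 (47.1%), a share that was not counted for all genes at that level. These 8 were SNHG3, SNHG12, GAS5, SNHG4, SNHG15, SNHG7, SNHG1 and SNHG17. This order was picked out after the values had been seen, library numbers carry no meaning across groups, and no test was made. SNHG12 differed by 0.26, -0.39, 0.39 and 0.40 on the log2 scale in knockout gels, control gels, knockout monolayers and control monolayers. The summed level of all rows named as snoRNAs or scaRNAs took the same order, at 208 and 160.3 CPM in knockout gels, 179 and 197 CPM in control gels, 155 and 141 CPM in knockout monolayers and 159 and 139 CPM in control monolayers. Mitochondrially encoded genes took 3.82 and 2.65% of counts in knockout gels, 3.15 and 4.26% in control gels, 4.47 and 4.37% in knockout monolayers and 3.71 and 3.89% in control monolayers, an order that differed in control monolayers. The part of either in the host levels was not tested.

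**Figure D5:**
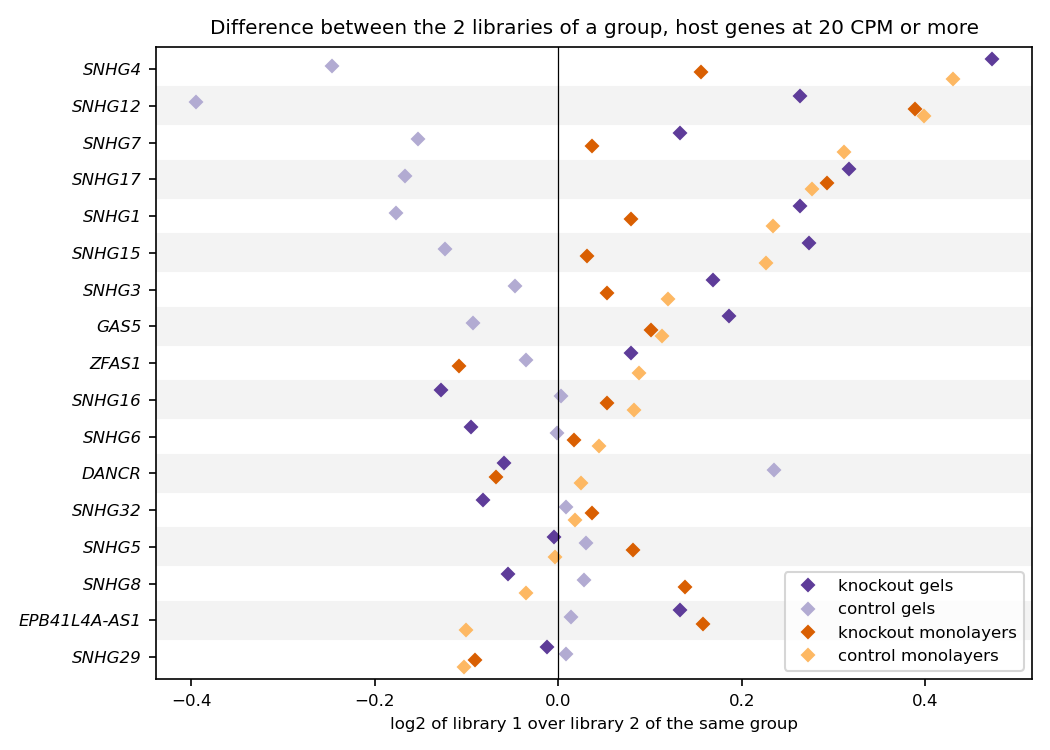
Log2 ratio of library 1 over library 2 within each group for the 17 host genes at 20 CPM or more, with a row per gene and a diamond per group. For SNHG12 and SNHG4 the diamonds of control gels lie left of 0, at -0.39 and -0.25, and those of the other groups right of 0, while SNHG29 and SNHG5 stay within 0.11 of 0.

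Few counts fell on the snoRNAs themselves in these poly(A) libraries. RefSeq places 151 snoRNA and scaRNA genes inside the 32 hosts, 84 of them in SNHG14. Of the 67 outside SNHG14, 53 had a row in the table, 23 of these were at 0 in every library, and 14 had 80 counts or more over the 8 libraries. SNORD104 had more counts than its host, with 1610 counts, against 280 for SNHG25. SNORA61 had 714 counts, against 4525 for SNHG12. Gene overlap also limits single values: the exons of 16 of the 32 hosts overlap a gene on the other strand and those of 7 overlap a gene on the same strand, and no source used here states whether the counting used strand.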

How the data were processed

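Polyadenylated RNA of 8 libraries was read from a deposited table of raw counts per gene symbol, which the authors left unnormalized, with 15824504 to 23896899 counts a library. Per the labels' protocols the libraries were made with a stranded mRNA kit after DNase treatment. Per the submitters' processing notes, FastQC 0.11.9, STAR 2.7.9a, featureCounts and R 4.1.1 were used with the build hg38. No source used here gives the annotation, the version of featureCounts or whether it used strand.

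The host genes and gene lists were chosen with earlier results of these data known. Genes were filtered with filterByExpr (minimum count 10), scaled by TMM and tested in edgeR 4.0.16 (R 4.3.3) with a model of 4 group means over the 8 libraries, with 4 residual degrees of freedom, and the robust quasi-likelihood F-test. Two-sided p-values were adjusted over 15568 genes by the Benjamini-Hochberg method, with a threshold of 0.05. The spread is shared across genes, so the hosts' tests had a median of 34.3 degrees of freedom. The 5 contrasts were knockout against control in gels and in monolayers, gels against monolayers in knockout and in control cells, and their interaction. CPM used the TMM factors, and CPM per kilobase the exon union of GENCODE v29. Small RNAs and promoters came from RefSeq (GRCh38.p14), by position without a strand check for the small RNAs. Hosts that passed a test or averaged 20 CPM are named with each library's value. From each list up to 3 genes with the smallest adjusted p could be named. Genes with overlapping exons were named after their values were seen.

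The 14 alternatives were DESeq2's size factors, library size alone, DESeq2 1.42.0, no filter on low counts, each library left out in turn, the replicate number as a block, and a correction for exon length and GC content. The fit was tested on simulated data. Replicate differences of any 2 groups correlated by -0.063 to 0.082 across genes, so the numbers 1 and 2 were not used to pair libraries.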

Additional observations from a re-analysis of the deposited data

Results flagged for a closer look

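In 3 of the 27 tested hosts (11.1%), and in 11.6% of all tested genes, the libraries of the groups compared did not overlap and lay in opposite directions under the same contrast in the other culture or kind of cell. SNHG8 was higher in knockout than control gels and lower in knockout than control monolayers, with an interaction of 0.27 on the log2 scale (edgeR, adjusted p = 0.117). SNHG6 was higher in knockout than control gels and lower in knockout than control monolayers, with an interaction of 0.10 (adjusted p = 0.574). Its log2 fold changes for knockout were small, at 0.07 in gels and -0.03 in monolayers, and neither passed. In monolayers the nearest libraries of the 2 kinds of cell were at 58.7 CPM (knockout) and 58.8 CPM (control). SNHG11 was lower in the gel in knockout cells and higher in the gel in control cells, with an interaction of -0.64 (adjusted p = 0.102). The interaction test did not pass for any of the 3.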

How the results depend on the processing

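Of 95 values (19 named hosts in 5 contrasts), 21 were called. Over the 14 alternatives 1223 values kept their side of the threshold, 58 lost the call and 49 gained it, and none that was called in either fit changed sign. SNHG28 and SNHG15 in both comparisons of gels with monolayers, EPB41L4A-AS1 in control cells and SNHG3 and SNHG16 in knockout cells in the gel passed in all 14. The count of hosts called for knockout was 4 in gels, against 1 under DESeq2, where 23.9% and 15.3% of all genes were called. Without control gel library 2, or without knockout gel library 2, DANCR, SNHG32, SNHG28 and SNHG5 all lost that call. Without control gel library 1, SNHG32 and SNHG5 lost it. For knockout in monolayers, DANCR and SNHG28 each lost the call without any 1 of the 4 monolayer libraries. The count of hosts called in monolayers was 2, against 0 under DESeq2, where 19.2% and 11.2% of all genes were called. For gels against monolayers it was 9 in knockout cells (7 to 10 with a library left out) and 6 in control cells (4 to 10, with 10 without knockout gel library 2). The interaction count was 0, and 0 to 1 with a library left out, the 1 being SNHG20 without knockout gel library 1 (adjusted p = 0.0405) and SNHG11 without knockout monolayer library 2. Without knockout monolayer library 2 the 9 calls in knockout cells were 4 higher and 5 lower, where the full fit had 7 higher and 2 lower. Library size alone gave 5 higher and 5 lower in knockout cells (36.2% of all genes called) and 2 higher and 7 lower in control cells (26% of all genes called). The length and GC correction gave 3 higher and 4 lower in control cells, 8 higher and 3 lower in knockout cells, 4 higher and 2 lower for knockout in gels, and 0 higher and 2 lower in monolayers. In the same order it called 28.5, 40.6, 27.4 and 19.3% of all genes. Without the filter, 7 hosts were higher and 2 lower in control cells, where 12.3% of 30651 genes were called. The replicate numbers showed no sign of pairing, and with the replicate block the counts were 6 and 2 for knockout in gels and monolayers, 11 and 8 for the gel in knockout and control cells, and 0 for the interaction. In the same order the block called 25.3, 20.5, 39.2, 28.5 and 7.73% of all genes. The causes were not tested. With 2 libraries a group, and 2 to 10 counts a library for hosts such as SNHG31, small changes of low hosts were not detectable.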
